A study of Homo sapiens with 8 samples.

Results

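SMAD7, SMAD6, SKIL, SKI, PMEPA1, BAMBI, SMURF1 and SMURF2 are the inhibitors and corepressors that hold back signalling by the SMAD transcription factors. They were followed through every probe set whose platform annotation names 1 of these 8 genes. The 8 genes were chosen with earlier results of these data known, and the annotation alone then set the probe sets, which gave 8 of 19775 genes and 26 of the 54613 probe sets, and none of the 26 names a further gene. The cells were MDA-MB-231, an established line from a metastatic human breast cancer, infected with a retroviral construct for a short hairpin RNA against GFP, which has no target in human cells and serves as a control. All cultures, untreated and treated alike, went without serum for 24 h. Treated cultures then received TGFβ for 3 h at a labelled 5 µg/ml, a unit that is uncertain because this cytokine is normally dosed in far smaller amounts. Each group had 4 arrays, labelled as biological replicates A to D; separate cultures are not stated, so p-values measure the spread between these samples, which may be technical.

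TGFβ binds a pair of receptor kinases that phosphorylate SMAD2 and SMAD3, which then join SMAD4 and switch genes on or off in the nucleus. The pathway limits itself at several levels. SMAD7 and SMAD6 are inhibitory SMADs that occupy receptors, BAMBI is a receptor look-alike without a kinase, PMEPA1 is a membrane protein that captures receptor-regulated SMADs, SMURF1 and SMURF2 are ubiquitin ligases for SMADs and receptors, and SKI and SKIL (also called SnoN) are nuclear corepressors bound to SMADs. Transcription of several of these genes is itself a target of SMADs, which closes a negative feedback loop.

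Signals are RMA values, normalized between arrays and given per probe set on a log2 scale. The level of one probe set cannot be set against that of another as an amount of RNA, so genes are compared by their change. Levels are set beside those of genes of other tissues only as a rough guide to low signals. Array medians lay between 4.62 and 4.66. Treated replicate A had a stronger 3-prime signal than the other 7 arrays, with a difference between the 3-prime and 5-prime control probe sets of ACTB of 1.68 (log2) against 0.63 to 0.89, and the part of this 3-prime excess in the results was not tested. Its value and that of treated replicate B for an 18S ribosomal RNA control were also high, at 7.67 and 7.45 (log2) where no other array exceeded 6.12. Of 6 markers of mesenchymal-like breast lines 5, among them VIM and AXL, lay above the highest of 8 genes of other tissues (mean log2 signal 5.58), and SPARC did not. Of 8 luminal or epithelial markers 5 lay above it, namely KRT18, KRT8, EPCAM, GATA3 and, by little, ESR1 (5.79). CDH1, PGR and FOXA1 did not. CDH1, the epithelial cadherin, rose by 0.90 (log2, adjusted p = 0.00579) at that low signal, and the other 13 of these 14 markers did not pass.

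The inhibitors split into 3 genes with large changes, 3 with small positive ones and 2 near 0. SMAD7 rose 3.50-fold after TGFβ. PMEPA1 stood higher by 4.32-fold to 5.25-fold over its 3 probe sets and SKIL by up to 2.92-fold. In the fit of all probe sets over all 8 arrays, theirs passed only once arrays were paired by letter. With 1 probe set per gene PMEPA1 passed without pairing (limma, adjusted p = 0.0418), but in only 3 of the 8 fits without 1 array. SKI, SMURF1 and SMURF2 had changes of 1.51-fold at most, and SMAD6 and BAMBI stayed within 1.14-fold of the untreated level. Over the 26 probe sets 1 passed the threshold (limma, adjusted p below 0.05 over all 54613 probe sets), beside a background of 0.256% of all probe sets, or 0.152% for higher calls. With the letter as a block 8 passed, all of them higher, beside 1.75%, or 0.758% for higher calls alone. These were the probe set of SMAD7, all 3 of PMEPA1, 3 of SKIL and 1 of SMURF1.

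**Figure D1:**
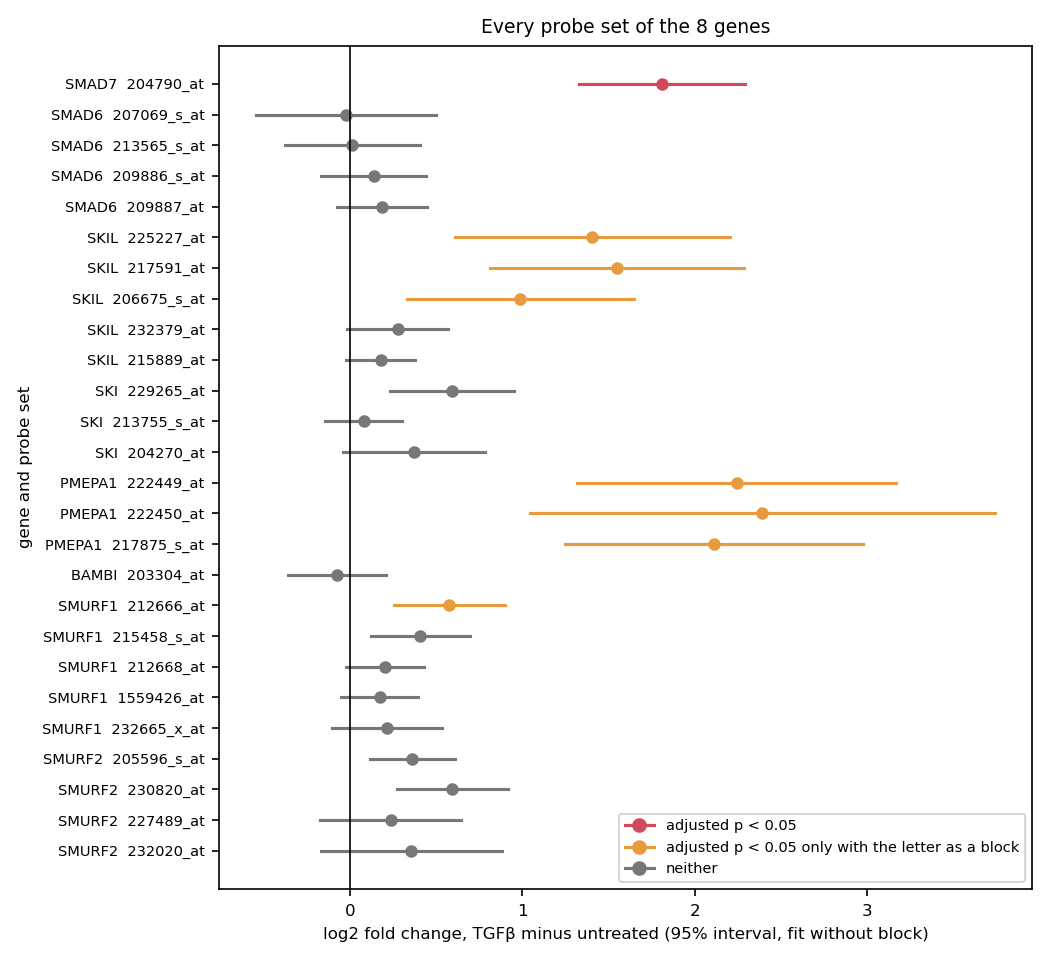
Log2 fold change (treated minus untreated, horizontal axis) of each of the 26 probe sets with its 95% interval from the fit without the block, 4 arrays per group. SMAD7 passed in that fit, 7 further probe sets passed only with the letter as a block, and 24 of the 26 points lie above 0.

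Most of the 26 probe sets were higher after TGFβ, which is no independent evidence of their direction given how the genes were chosen. Of these 24 had a positive log2 fold change (92.3%), where 53.7% of all probe sets did, and their median was 0.36 against 0.01. The groups did not overlap in 7 of the 26, each time with the treated arrays above, and 2.79% of all probe sets were separated in that direction. They belonged to SMAD7, to PMEPA1 (3), to SKIL (1) and to SMURF2 (2). In 17 of the 26 the treated array was the higher of the pair for every letter, as in 11% of all probe sets. An unadjusted p under 0.05 was reached by 12 of the 26 and by 7.44% of all.

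SMAD7 (Entrez Gene 4092, probe set 204790_at) is recruited to activated TGFβ receptors and brings ubiquitin ligases to them. Its untreated signals were 5.51, 6.50, 6.01 and 5.88 in replicates A to D, and its treated signals were 7.28, 7.99, 7.97 and 7.90. The lowest treated array thus exceeded the highest untreated one, and replicate A was the lowest of both groups. The mean went from 5.98 ± 0.41 to 7.78 ± 0.34 (log2, SD, n = 4), a log2 fold change of 1.81 ± 0.22 SE (95% interval 1.33 to 2.29, adjusted p = 0.0108). The step was of similar size in each letter, at 1.77, 1.49, 1.96 and 2.02. It was the only one of the 26 probe sets called without the block, and it lost that call in 3 of the 8 fits without 1 array, namely without untreated C (adjusted p = 0.0574), untreated D (0.0601) or treated D (0.0554). Its log2 fold change stayed between 1.65 and 1.98 over the 8 fits without 1 array. In the 3 fits that lost the call, the calls over all probe sets fell from 140 to 36, 33 and 42. With the letter as a block the adjusted p of SMAD7 was 0.000209.

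PMEPA1 (56937), the membrane protein that captures SMADs, had the 3 largest log2 fold changes of the 26 probe sets over all arrays, an order that did not hold without untreated replicate A. For 222449_at the untreated arrays read 8.22, 10.53, 9.95 and 10.28 and the treated arrays 11.67, 12.21, 12.06 and 12.01. The treated arrays lay close together, while untreated replicate A was far below the other untreated arrays. Treated minus untreated was 2.24 ± 0.42 SE (95% interval 1.32 to 3.16; adjusted p = 0.0777, or 0.00299 with the block).

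The other probe sets of PMEPA1 gave the same picture at lower signals. Probe set 217875_s_at read 5.03, 7.21, 6.84 and 6.66 untreated and 8.19, 8.76, 8.65 and 8.58 treated, which is 2.11 ± 0.39 SE higher (adjusted p = 0.0756; 0.0023 with the block). Probe set 222450_at read 6.10, 9.46, 8.65 and 8.85 untreated and 9.91, 11.09, 10.80 and 10.84 treated (2.39 ± 0.61 SE, adjusted p = 0.234; 0.00454 with the block). In all 3 probe sets the groups did not overlap and untreated replicate A was the lowest array. The change within letter A was 3.45, 3.80 and 3.16 for 222449_at, 222450_at and 217875_s_at, while letters B to D gave 1.55 to 2.15. Without untreated replicate A the log2 fold changes were 1.73, 1.67 and 1.64, and 222449_at and 217875_s_at then passed (adjusted p = 0.00905 and 0.0111, beside 0.183% of all probe sets), while 222450_at did not (0.0783). SMAD7 stood at 1.65 in the same fit, between the PMEPA1 values.

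SKIL (6498) had 5 probe sets, of which 3 carried a change and 2 lay at very low signals. Probe set 225227_at, the brightest, read 7.04, 8.78, 7.70 and 7.71 untreated and 9.36, 9.94, 8.66 and 8.89 treated. Treated replicate C lay just under untreated replicate B, so the groups overlapped, although the treated array was higher in every letter, by 2.32, 1.17, 0.96 and 1.18. The log2 fold change of 1.41 ± 0.36 SE passed only in the blocked fit (adjusted p = 0.00887, against 0.238 without the block).

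The remaining probe sets of SKIL differed in which arrays carried the change. Probe set 217591_at read 5.17, 5.99, 6.55 and 5.16 untreated and 7.10, 7.97, 6.82 and 7.17 treated (1.55 ± 0.33 SE, adjusted p = 0.135; 0.0228 with the block). Its step was 0.26 in letter C and 1.93 to 2.01 in the others, and untreated replicate C was the highest untreated array. Probe set 206675_s_at read 3.65, 4.57, 4.03 and 4.32 untreated and 4.34, 5.89, 5.05 and 5.24 treated (0.99 ± 0.30 SE, adjusted p = 0.364; 0.00295 with the block), with overlapping groups. In the blocked fit the call of 217591_at was lost without letter B or D (adjusted p = 0.149 and 0.0966) and that of 225227_at without letter B (0.0547), while 206675_s_at passed without any 1 letter. The faintest pair, 232379_at and 215889_at, had signals of 2.57 to 3.44 and log2 fold changes of 0.28 and 0.18, and neither passed with or without the block. Such signals are in the range of the genes of other tissues, whose means ran from 2.57 to 5.58, and 9 of the 26 probe sets (3 of SKIL, 3 of SMAD6 and 3 of SMURF1) had means within that range.

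**Figure D2:**
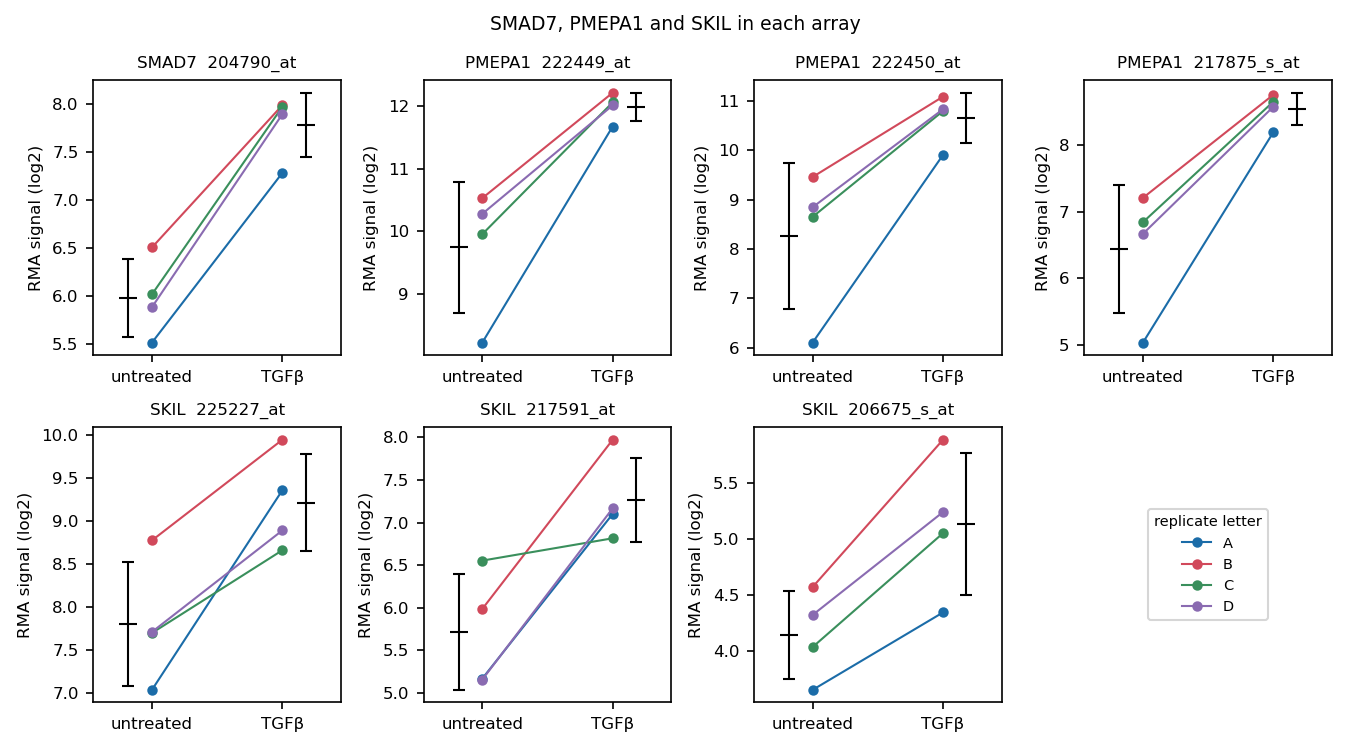
RMA signal (log2, vertical axis, scaled per panel) of SMAD7, the 3 probe sets of PMEPA1 and the 3 brighter probe sets of SKIL in each array; lines join arrays of the same replicate letter, and black bars are mean ± SD of 4 arrays. Every line goes up; untreated replicate A is the lowest array in the PMEPA1 panels, and letter C of SKIL 217591_at goes up by only 0.26.

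Promoter sequence was taken from RefSeq (GRCh38.p14), from 250 bases before to 50 after each annotated start, to show what precedes SMAD7, PMEPA1 and SKIL and SMAD6, the inhibitory SMAD that was not called. The table held 12 windows for 7 of the 8 genes, with 3 for SMAD7 and 4 for PMEPA1, and arrays do not tell which start was used. For SMAD7 and PMEPA1 the window with the most CAGAC matches is printed; SKIL and SMAD6 have 1 window each. Capitals mark the letters CAGAC (or GTCTG on the other strand), the classic SMAD box, and the palindrome GTCTAGAC.
SMAD7, chr18:48950916-48951215, minus strand: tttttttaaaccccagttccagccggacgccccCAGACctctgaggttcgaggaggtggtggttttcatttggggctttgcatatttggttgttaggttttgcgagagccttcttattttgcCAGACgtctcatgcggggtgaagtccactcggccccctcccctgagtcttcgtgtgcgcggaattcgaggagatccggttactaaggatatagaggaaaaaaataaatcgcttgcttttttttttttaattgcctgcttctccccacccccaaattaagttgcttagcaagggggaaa
PMEPA1, chr20:57709966-57710265, minus strand: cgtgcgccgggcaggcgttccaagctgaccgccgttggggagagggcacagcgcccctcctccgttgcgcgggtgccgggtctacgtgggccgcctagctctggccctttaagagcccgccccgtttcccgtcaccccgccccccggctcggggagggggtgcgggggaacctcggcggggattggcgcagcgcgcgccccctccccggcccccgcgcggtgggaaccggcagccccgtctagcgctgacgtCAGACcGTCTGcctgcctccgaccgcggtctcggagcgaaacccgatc
SKIL, chr3:170357465-170357764, plus strand: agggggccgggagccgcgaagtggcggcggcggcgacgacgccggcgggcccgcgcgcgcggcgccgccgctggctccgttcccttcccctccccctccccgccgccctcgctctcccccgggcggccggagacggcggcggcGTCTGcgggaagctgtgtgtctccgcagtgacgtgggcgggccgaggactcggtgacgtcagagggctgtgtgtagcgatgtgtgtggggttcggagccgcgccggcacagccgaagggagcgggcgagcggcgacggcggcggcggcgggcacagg
SMAD6, chr15:66701986-66702285, plus strand: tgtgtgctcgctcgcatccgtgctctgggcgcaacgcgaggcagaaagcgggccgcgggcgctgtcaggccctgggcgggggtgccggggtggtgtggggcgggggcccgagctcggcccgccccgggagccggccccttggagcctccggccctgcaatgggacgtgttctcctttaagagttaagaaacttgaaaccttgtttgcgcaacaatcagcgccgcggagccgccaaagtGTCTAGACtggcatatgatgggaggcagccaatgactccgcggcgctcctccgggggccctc

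CAGAC boxes stood at positions -217 and -128 of the SMAD7 window, at 3 and 9 of the PMEPA1 window and at -107 of the SKIL window, counted from the annotated start to the left base of the match. The GTCTAGAC palindrome stood at -12 of SMAD6, whose signal did not pass, and in no other of the 12 windows. Sequence outside these short windows was not searched, so the search cannot tell whether SMAD7 or another gene lacks the palindrome. Searched on both strands, CAGAC occurred in 9 of the 12 windows and in 45.3% of 35116 windows of that length, so its presence is common. GTCTAGAC, which holds no CAGAC, occurred in 0.202% of all windows. The GC-rich SMAD box GGCGC was found in 9 of the 12 windows and in 48.6% of all, and the AP-1 site TGANTCA in 0 of 12 and 7.71% of all. These matches describe the letters only.

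SMAD6 (4091), which mainly restrains the bone morphogenetic protein branch, showed no common direction. Its brightest probe set, 207069_s_at, read 6.34, 6.47, 6.84 and 6.73 untreated and 5.86, 6.50, 7.09 and 6.85 treated. The groups overlapped, and the treated array was lower in letter A, by 0.48, and higher in B, C and D, by 0.03 to 0.25. The log2 fold change was -0.02 ± 0.24 SE (95% interval -0.54 to 0.50, adjusted p = 0.993), and without treated replicate A it was 0.22 (adjusted p = 0.794). A change as large as that of SMAD7 lies outside the 95% interval of this probe set over all arrays. The other 3 probe sets of SMAD6 had log2 fold changes of 0.01 to 0.18, and the upper bounds of their 95% intervals were 0.40 to 0.45. Their signals lay in the range of the genes of other tissues, where a probe set can stay flat, so their intervals cannot exclude a change.

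BAMBI (25805, 203304_at), the pseudoreceptor, showed little difference between the groups. It read 6.53, 6.83, 6.997 and 6.81 untreated and 6.50, 6.68, 6.96 and 6.73 treated, so that the arrays differed more by letter than by treatment. The log2 fold change was -0.08 ± 0.13 SE (95% interval -0.36 to 0.21, adjusted p = 0.942; 0.765 with the block), although each letter was lower after treatment, by 0.03 to 0.15.

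SKI (6497), the relative of SKIL, had 3 probe sets, and none passed in either fit of probe sets. Probe set 229265_at read 7.99, 8.44, 8.05 and 8.16 untreated and 8.35, 8.65, 9.01 and 8.99 treated. The treated array was higher by 0.96 and 0.83 in letters C and D and by 0.36 and 0.21 in A and B, and the groups overlapped because treated replicate A stayed below untreated replicate B. Its difference was 0.59 ± 0.16 SE (log2, adjusted p = 0.292 without the block, 0.0709 with it). Probe set 204270_at gave 0.37 ± 0.19 SE (adjusted p = 0.722), with a lower treated array in letter A, and 213755_s_at gave 0.08 ± 0.10 SE (adjusted p = 0.916).

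SMURF1 (57154) was above 0 in all 5 probe sets, by 0.17 to 0.58. Probe set 212666_at read 7.72, 8.22, 7.82 and 8.06 untreated and 8.19, 8.74, 8.58 and 8.61 treated, higher in each letter by 0.47 to 0.76 with groups that overlapped slightly. Its log2 fold change of 0.58 ± 0.15 SE (95% interval 0.25 to 0.90) passed only in the blocked fit (adjusted p = 0.0157, against 0.234 without the block). That call was lost when letter B, C or D was left out of the blocked fit (adjusted p = 0.0969, 0.0834 and 0.0798). Probe set 215458_s_at read 6.04, 5.90, 6.04 and 6.17 untreated and 6.08, 6.50, 6.63 and 6.56 treated, which is a step of 0.04 in letter A and 0.40 to 0.60 in the others (0.41 ± 0.13 SE, adjusted p = 0.409; 0.133 with the block). The 3 fainter probe sets did not pass in either fit.

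SMURF2 (64750) was above 0 in all 4 probe sets, by 0.24 to 0.59, and none passed. The brightest, 205596_s_at, read 10.83, 11.19, 10.998 and 11.02 untreated and 11.41, 11.57, 11.25 and 11.24 treated, and 230820_at read 9.54, 9.49, 9.77 and 9.42 untreated and 9.98, 10.56, 9.96 and 10.09 treated. In both the treated arrays lay above all untreated ones. The log2 fold changes were 0.36 ± 0.11 SE (95% interval 0.12 to 0.61, adjusted p = 0.379; 0.115 with the block) and 0.59 ± 0.14 SE (0.27 to 0.91, adjusted p = 0.204; 0.0732 with the block). In 227489_at and 232020_at, where the groups overlapped, the values were 0.24 ± 0.18 and 0.36 ± 0.24 SE.

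**Figure D3:**
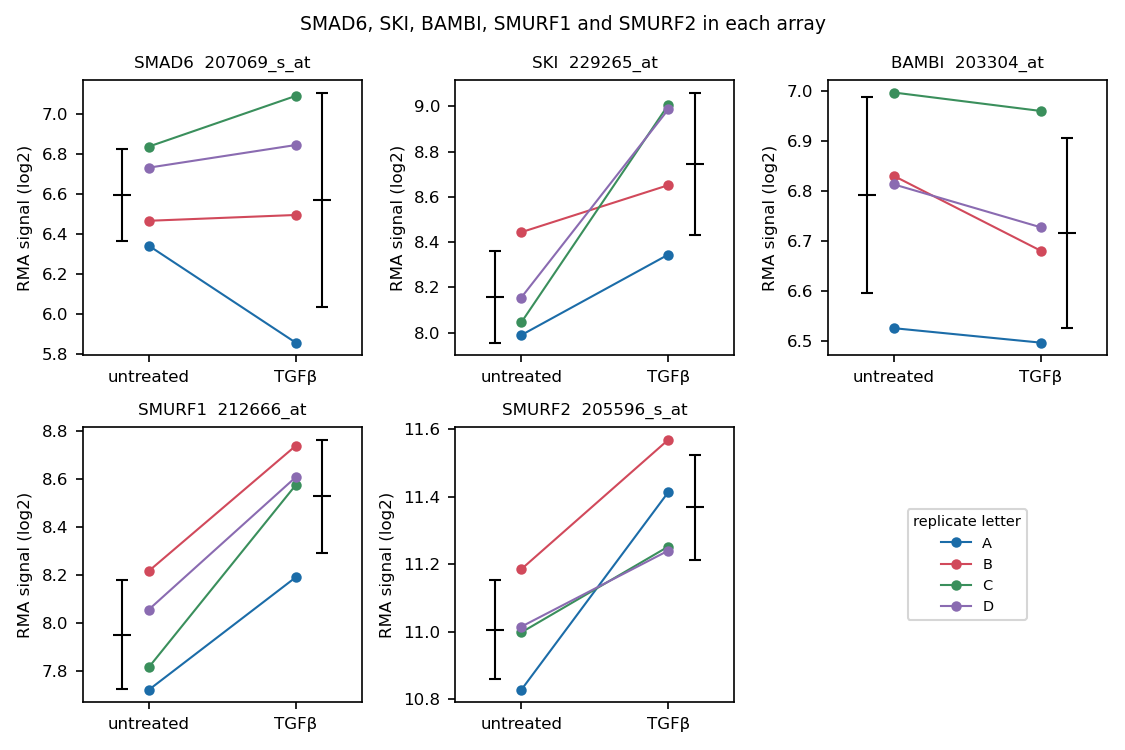
RMA signal (log2, vertical axis, scaled per panel) of the brightest probe set of SMAD6, SKI, BAMBI, SMURF1 and SMURF2 in each array; lines join arrays of the same replicate letter, and black bars are mean ± SD of 4 arrays. SKI, SMURF1 and SMURF2 are higher in every letter by 0.21 to 0.96, BAMBI is lower in each by at most 0.15, and SMAD6 is lower in letter A only.

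With 1 probe set per gene, that with the highest mean, and adjustment over 19775 genes, 2 of the 8 genes rose, beside a background of 0.354% of genes called higher. They were SMAD7 (adjusted p = 0.0039), which passed in all 8 fits without 1 array, and PMEPA1 (adjusted p = 0.0418), which passed in 3 of them (adjusted p up to 0.147). With the block 5 rose, beside 1.39%, adding SKIL, SMURF1 and SKI (adjusted p = 0.00205, 0.00485 and 0.0314). SMURF2 had an adjusted p of 0.0623 in that fit. When the probe sets of a gene were averaged, SMAD7 alone passed (adjusted p = 0.00645), and PMEPA1 and SKIL had adjusted p-values of 0.0844 and 0.0802.

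Related genes were compared inside each array, as the difference between their brightest probe sets. The change of SMAD7 exceeded that of SMAD6 by 1.83 (log2, 95% interval 1.19 to 2.47), with 2.26, 1.46, 1.71 and 1.90 in letters A to D. In an exact two-sided permutation test of 4 arrays against 4 the p was 0.0286, the smallest this design allows, and 0.0857 when adjusted over the 3 pairs tested. A pair that alone reaches the smallest p cannot pass after that adjustment, however large its difference. The miss therefore says nothing against the difference between SMAD7 and SMAD6. SKIL exceeded SKI by 0.82 (95% interval -0.36 to 1.99; exact permutation p = 0.171, adjusted p = 0.171). That excess was 1.96 and 0.96 in letters A and B but 0.00 and 0.35 in C and D. SMURF2 minus SMURF1 was -0.22 (95% interval -0.57 to 0.14; exact permutation p = 0.171, adjusted p = 0.171), and turned to 0.07 when the probe sets of each gene were averaged.

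**Figure D4:**
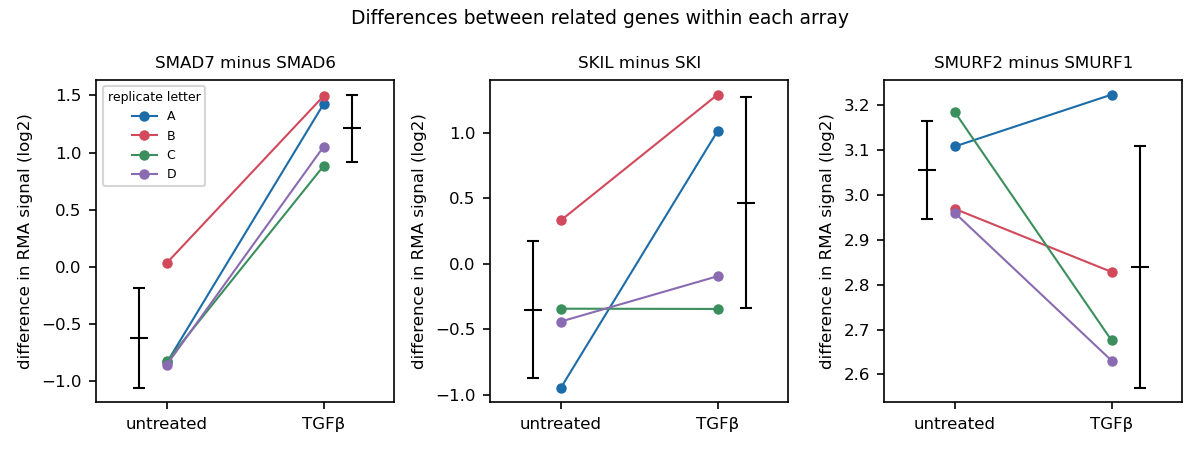
Difference in RMA signal (log2, vertical axis) between related genes within each array, untreated and treated; lines join arrays of the same replicate letter, and black bars are mean ± SD of 4 arrays. SMAD7 minus SMAD6 is higher in all 4 treated arrays than in their pairs, by 1.46 to 2.26, whereas SKIL minus SKI is higher by 1.96 and 0.96 in letters A and B and level in C.

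Letter A was often, though not always, the lowest among these probe sets. Untreated replicate A was the lowest untreated array in 13 of the 26 probe sets (50%) against 28.0% of all probe sets, and treated replicate A was the lowest treated array in 14 (53.8%) against 27.5%. These include SMAD7 and all of PMEPA1 in both groups, and probe sets of the same gene are not independent counts. In SMAD6 209886_s_at and 209887_at letter A was instead the highest array of both groups. Whether the 3-prime excess of treated replicate A contributed was not tested. Leaving out treated replicate A left SMAD7 as the only call (adjusted p = 0.00415, beside 0.439% of all probe sets), while SMURF1 215458_s_at, 212666_at and SKI 229265_at came to adjusted p of 0.0668, 0.0727 and 0.0747.

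Genes with the profile nearest to each brightest probe set were found by the root mean square distance of array values, after centring each on its mean over the 8 arrays, among 19774 genes. Nearest to SMAD7 were NEDD9, a focal adhesion scaffold (0.21 log2 units), TGFBI, a matrix protein (0.22), and the kinase SGK1 (0.24). SKIL was nearest to CDH19, a cadherin (0.16), the kinase STK38L (0.21) and the basement membrane collagen chain COL4A1 (0.29), genes that like SKIL were high in both arrays of letter B. PMEPA1 was nearest to LBH (0.39), the ephrin receptor EPHA4 (0.43) and SGK1 (0.44). SMAD7 was 5th and SKIL 12th in the order of distance from PMEPA1.

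The weaker members had closer neighbours, as profiles with little movement do. SKI was nearest to LINC00623 (0.11), MLXIP (0.13) and C1orf198 (0.14), with SMURF1 in 9th place (0.15). SMURF1 was nearest to the kinase ABL1, CMTM3 and IL1RAP, all at 0.10 to 0.11. SMAD6 was nearest to CPPED1 (0.07), CHRNB1 (0.08) and TMEM191A (0.08), each with its lowest value in treated replicate A.

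The rest of the pathway gave the setting for these changes. Among 19 early targets of SMADs, 13 rose and 6 missed the threshold, beside 0.576% of all genes called. JUNB, a subunit of AP-1, rose by 1.64 ± 0.11 SE (log2) (adjusted p = 0.000168), ANGPTL4, a lipase inhibitor, 2.38 ± 0.18 SE (adjusted p = 0.000392) and FSTL3, an activin antagonist, 1.18 ± 0.10 SE (adjusted p = 0.000737). All 19 were above 0, with a median of 1.03 against 0.01 for all genes. Part of this list was drawn up with earlier results of these arrays known, so its direction is no independent evidence.

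Lists of the machinery around the inhibitors held almost no calls. Of 14 ligands and receptors none passed. TGFBR3, the betaglycan co-receptor, had -1.12 ± 0.28 SE (adjusted p = 0.164; 0.000541 with the block), TGFBR2, the type II receptor, -0.51 ± 0.14 SE with treated arrays below all untreated ones (adjusted p = 0.223; blocked 0.00678), while the co-receptor ENG had 0.30 ± 0.12 SE (adjusted p = 0.526). Of 7 genes, made up of the signalling SMADs and their anchor ZFYVE9, none passed. The 6 SMADs were below 0, ZFYVE9 stood at 0.001, and the median was -0.11 against 0.01 for all genes. The smallest p values belonged to SMAD1 (-0.45 ± 0.13 SE, adjusted p = 0.249; 0.0431 with the block), SMAD2 (-0.25 ± 0.08 SE, adjusted p = 0.321) and SMAD3 (-0.21 ± 0.11 SE, adjusted p = 0.72). The receptors and signalling SMADs thus gave no call in the direction of SMAD7 in either fit.

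Other negative regulators of the pathway, the extracellular antagonists aside, gave no call in the fit without the block. Of 16 further negative regulators none passed, 10 were below 0, and the median was -0.04 against 0.01 for all genes. CTDSPL, a phosphatase, had -0.57 ± 0.18 SE (adjusted p = 0.32; 0.00882 with the block), NEDD4L, a ubiquitin ligase of the SMURF class, -0.47 ± 0.24 SE (adjusted p = 0.705; blocked 0.0309) and the corepressor TGIF2 0.22 ± 0.13 SE (adjusted p = 0.754).

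Of 12 genes that modify or bind the members, such as ligases and deubiquitinases, none passed in either fit, and the smallest p values belonged to STAMBPL1 (-0.36 ± 0.23 SE, adjusted p = 0.788), UCHL5 (-0.18 ± 0.13 SE, adjusted p = 0.834) and USP9X (-0.20 ± 0.20 SE, adjusted p = 0.893). All 9 measured partners of the SKI corepressor complex, of 12 listed, were below 0 with 1 probe set per gene. Over all probe sets, a share not reduced to 1 per gene, 53.7% were above 0. The 95% intervals excluded 0 for SIN3B and SIN3A alone. Their median was -0.07 against 0.01 for all genes, and none passed without the block. Those with the smallest p were the scaffolds SIN3B (-0.48 ± 0.10 SE, adjusted p = 0.0773; 0.0222 with the block) and SIN3A (-0.33 ± 0.10 SE, adjusted p = 0.291) and the cofactor DACH1 (-0.16 ± 0.10 SE, adjusted p = 0.793). Of 11 extracellular antagonists FSTL3 rose, and FST and NOG had 0.64 ± 0.29 and 0.18 ± 0.12 SE (adjusted p = 0.61 and 0.798). Each count of calls in these lists stands beside the same 0.576% of all genes, and with the block 2 receptors, 1 SMAD, 2 negative regulators and 1 corepressor partner fell, beside 3.57% of genes called and 2.18% called lower.

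**Figure D5:**
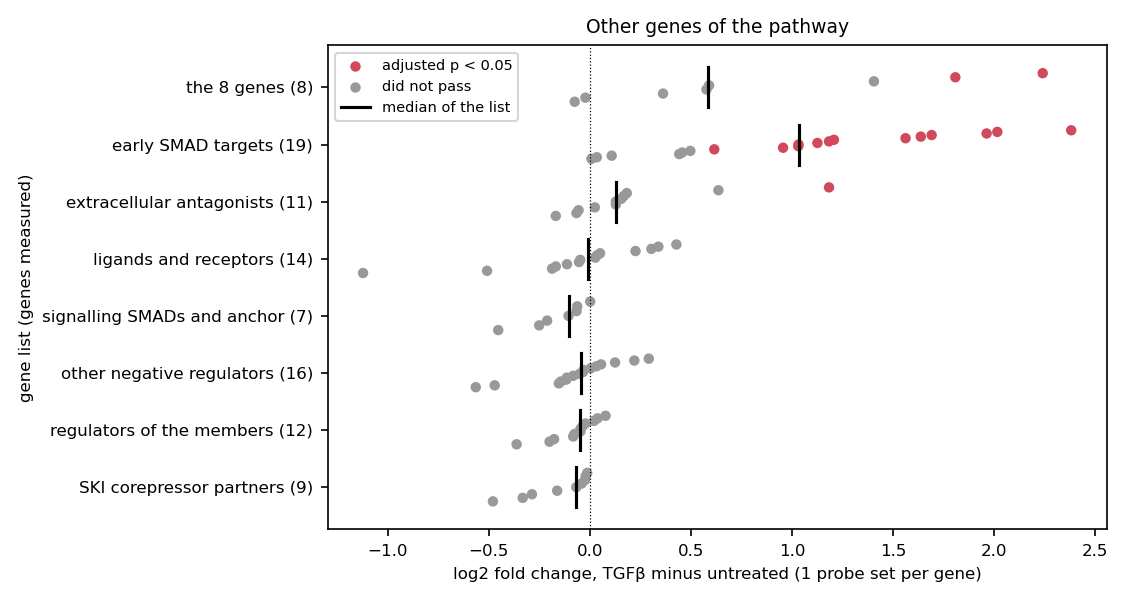
Log2 fold change (treated minus untreated, horizontal axis) of each measured gene, by list, with 1 probe set per gene; red points passed at an adjusted p of 0.05 in the fit without the block, and black bars are medians. SMAD7 and PMEPA1 are red among the 8 genes and 13 of 19 early targets are red, while the receptor, SMAD, regulator and corepressor lists have no red point.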

How the data were processed

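Expression was measured on 8 Affymetrix arrays, 4 per group. The deposited values are log2 signals from the authors' RMA run (the submitters' processing notes name the tool). Its version and the set of arrays it normalized are not given here, and the log base was inferred from the range. Of 54675 rows 62 controls were left out. Genes were named by GEO's platform annotation of 2016, where 41091 probe sets name 1 gene.

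Groups came from the titles. Each probe set was fitted with limma 3.58.1 in R 4.3.3 (lmFit, eBayes, two-sided, Benjamini-Hochberg over 54613 probe sets, threshold 0.05), and again with 1 probe set for each of 19775 genes. Members, lists and tests were chosen with earlier results of these data known. Named genes were all member probe sets, the 3 smallest p of each list and the 3 nearest profiles of members spanning at least 1 log2 unit. Both groups carry letters A to D: deviations from group means correlated at 0.49, 0.69, 0.34 and 0.30 over genes for same-letter arrays. Untreated C with treated D (0.33) and untreated D with treated C (0.31) correlated as highly, so C and D are not told apart as pairs, and the labels do not say what a letter marks. The blocked fit treats the letters as pairs and is given where it changes a call. In simulated probe sets, 71% of 2-fold and 30% of 1.5-fold changes were found when no block was used (7 false among 108 calls). The block fit was simulated apart, with shared letter effects, and found 59% and 10% (3 false among 72). These rates come from unlike simulated data, so they cannot rank the fits. In the real arrays the block gave more calls (954 against 140), so the rates are not a measure of recovery here. Alternatives were other filters, scalings and priors, the block, averaged probe sets and leaving out arrays. Some genes of the lists are not reported here, and p53-depleted cells were not analysed here. Figures used matplotlib 3.10.9 in Python 3.11.15; permutation tests used scipy 1.17.1.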

Additional observations from a re-analysis of the deposited data

Results flagged for a closer look

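Of 52 groups of 4 arrays (26 probe sets, untreated and treated) 2 held an array far from the other 3. Chance gives about 1 in 20, so this count is no higher than chance would give. Both of these arrays were treated replicate A. SMAD7 204790_at read 7.28 there against 7.90 to 7.99 in the other treated arrays, and SMURF1 212668_at read 5.32 against 5.61 to 5.63.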

How the results depend on the processing

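Over the 26 probe sets and 18 alternatives, 408 comparisons kept direction and call, 34 passed anew, 3 lost the call (SMAD7, without untreated C, untreated D or treated D) and 10 reversed. The filter to the upper 60% of signals held only 22 of the 26 probe sets. The filter against probe sets that can match several transcripts held only 17. All reversals were of SMAD6 near 0: 207069_s_at became 0.030 after quantile normalization again, 0.06, 0.02, 0.22 and 0.0033 without untreated C, untreated D, treated A and treated B, and 0.13 in the block fit without letter A (-0.19 to 0.22 without 1 array); 213565_s_at became -0.0013 after centring, -0.08 and -0.17 without untreated B and treated A, and -0.13 in the block fit without letter A (-0.17 to 0.11 without 1 array). The count of member probe sets called, 1, was 8 with the replicate block, 2 in the fit of genes, 11, 5, 7 and 6 in the block fit without letters A, B, C and D (chosen after seeing the data), and 0 to 3 without 1 array: 0 without untreated C, untreated D or treated D and 3 without untreated A. The count over all probe sets, 140, was 954 with the block, 1416, 282, 389 and 384 in the block fit without letters A to D, and 33 to 240 without 1 array (240 without treated A, 36 and 33 without untreated C and D, 85, 50 and 42 without treated B, C and D); over genes, 114 became 705 with the block and 46 to 232 without 1 array (232 without treated A, 50 and 53 without untreated C and D, 59 and 46 without treated C and D). The paralog differences kept their direction except SMURF2 minus SMURF1 (0.072 with averaged probe sets), and none passed. With 4 arrays against 4, a pair that alone reaches the smallest p cannot pass after adjustment over the 3 pairs. With fewer arrays that smallest p is larger still. A sign flip over 4 letter pairs (replicate block, adjusted p = 0.25 for each) cannot pass in this design either, so it says nothing. Signals near those of genes of other tissues limit 9 of the 26 probe sets.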
